A study of Mus musculus with 7 samples.

Results

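The secretory pathway coat and translocon genes described here are 52 mouse genes for protein entry into the endoplasmic reticulum (ER) and for the coated vesicles that carry cargo between the ER and the Golgi. They were chosen by gene symbol from a count table of 24421 rows, and all 52 symbols were in it. The libraries read the 3' ends of polyadenylated RNA from stromal cells sorted out of BALB/c mice. The pCAF group held 3 libraries of cancer-associated fibroblasts, taken as Ter119-, CD45-, EpCAM- and PDPN+ cells from mammary tumors of 1 cm. These tumors had grown in females from 100000 cells of 4T1-luc, a mammary carcinoma line of the mouse that carries luciferase, placed in a mammary fat pad. The NMF group held 4 libraries from normal mammary fat pads of untreated mice, whose cells were sorted by the same 3 negative markers and with no selection on PDPN. The labels gave the mice of the pCAF group an age of 8 weeks and those of the NMF group 12 weeks, whereas the design text described age-matched animals. The selection field of pCAF replicate 3 read PDPN-, against its title and source, and it was kept with its titled group. Replicates were labelled biological, but no animal was named, so p-values reflect only how far these libraries spread.

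Secreted and membrane proteins enter the ER as they are made. The signal recognition particle (SRP) brings the ribosome to the Sec61 channel, signal peptidase removes the leader peptide, and the translocon-associated protein (TRAP) complex assists the channel. The COPII coat then buds vesicles from the ER, the COPI coat returns vesicles from the Golgi, and cargo receptors sort proteins into either. Fibroblasts are professional secretory cells whose main cargo is collagen, and CREB3-family transcription factors are known to switch on coat genes in collagen-making cells.

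Total counts per library ran from 1885039 to 2184389 in pCAF and from 2223198 to 4990070 in NMF. In these libraries the members took 1.20 to 1.25% of all counts in pCAF and 0.658 to 0.806% in NMF. In each group 1 library differed most from the rest, replicate 1 in pCAF and replicate 4 in NMF. Chi-square per degree of freedom between library pairs, near 1 under sampling noise, was 3.22 to 42.2 in pCAF and 6.47 to 39.8 in NMF. Markers of other cell types differed between the groups. The summed level of 16 blood endothelial markers was 156 to 314 CPM (counts scaled to a library of 1000000) in pCAF and 3147 to 5226 CPM in NMF, and all 16 were lower in pCAF, with Sox17 at 0. The summed level of 9 fibroblast markers was 73139 to 82606 CPM in pCAF and 26282 to 46117 CPM in NMF (5 higher and 1 lower in pCAF). Most of this sum came from Col1a1, Col1a2 and Col3a1, which were higher in pCAF. Pdgfra averaged 208 CPM in pCAF and 201 CPM in NMF, and Dcn and Dpt lay below NMF in each pCAF library. Pdpn, also among the higher genes, was a sort marker for pCAF alone. All 3 tested adipocyte markers were lower in pCAF, where the 5 listed summed to 0 to 5.54 CPM, against 50.2 to 102 CPM in NMF, and where Plin1, Cidec and Lep were at 0. Leukocyte markers summed to 19.95 to 40.5 CPM in pCAF and 15.7 to 79.2 CPM in NMF (2 of 4 tested were lower in pCAF, with Ptprc and Cd79a at 0). Epithelial markers summed to 74.9 to 234 CPM in pCAF and 62.9 to 344 CPM in NMF (2 of 6 tested were lower in pCAF, with Krt5 at 0). Pericyte and smooth muscle markers summed to 259 to 435 CPM in pCAF and 361 to 564 CPM in NMF (1 of 7 higher and 2 lower in pCAF). Lymphatic markers summed to 23.3 to 46.2 CPM in pCAF and 30.6 to 62.1 CPM in NMF (1 of 3 tested higher and 1 lower in pCAF), and Ccl21a was at 0 in all 7 libraries. What part these other cells played in the results below was not tested, and in such bulk samples fewer cells of a type and less RNA per cell cannot be told apart. Runx1, the factor in the title of the series, was 48.3-fold higher in pCAF (adjusted p = 1.76e-04).

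Each of the 8 functional classes for protein entry and early transport held at least 1 gene that was higher in pCAF. In the SRP class this was 1 gene that rested on single libraries. Of the 10 cargo receptors, 1 remained higher without NMF replicate 1, 2 or 3, where 9.92% to 11.0% of all tested genes were higher. Of the 50 members with enough counts to test, 23 were higher in pCAF at an adjusted p under 0.05 in edgeR's quasi-likelihood test, a share of 46.0%. Across all 10535 tested genes the share was 14.3%. No member was lower in pCAF, whereas 14.2% of all tested genes were. In this edgeR fit, in DESeq2 and in limma-voom, each on all 7 libraries, no member was lower even at an unadjusted p under 0.05, and 1 was lower at that level in 2 of the other alternatives, the replicate block and the fit without pCAF replicate 1 and NMF replicate 4. The fitted difference was positive in 46 of the 50 and negative in 4, with a median log2 fold change of 0.86, against a median of -0.02 over all tested genes. In 21 members the lowest pCAF library exceeded the highest NMF library, a pattern that 19.0% of all tested genes showed. The summed level of all 52 members was 14516, 13306 and 13169 CPM in pCAF and 6301, 6200, 7700 and 6135 CPM in NMF (the replicates of each group in numerical order, as throughout). Thus the lowest pCAF sum stood well above the highest NMF sum, that of replicate 3.

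The count of higher members depended on which libraries entered the fit. It was 14 without NMF replicate 1 and 14 without NMF replicate 2, where 9.96% and 9.92% of all tested genes were higher. Without pCAF replicate 1 and NMF replicate 4 together it was 32, against 25.9% of all genes tested in that fit. Of the 23 members, 12 passed under all 16 alternatives tried: Sec61a1, Sec61b, Spcs1, Ssr3, Sec22b, Sec23a, Copb1, Copb2, Arcn1, Arf4, Kdelr3 and Creb3l1. With library totals alone in place of TMM factors, 17 members were higher and none lower, and the higher genes made up 37.1% of all calls, where TMM factors gave 50.2%. That scaling put the median gene at a log2 fold change of -0.26. Relative to the median of all genes, the median member stood at 0.90 with library totals and at 0.88 with TMM factors on the log2 scale.

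**Figure D1:**
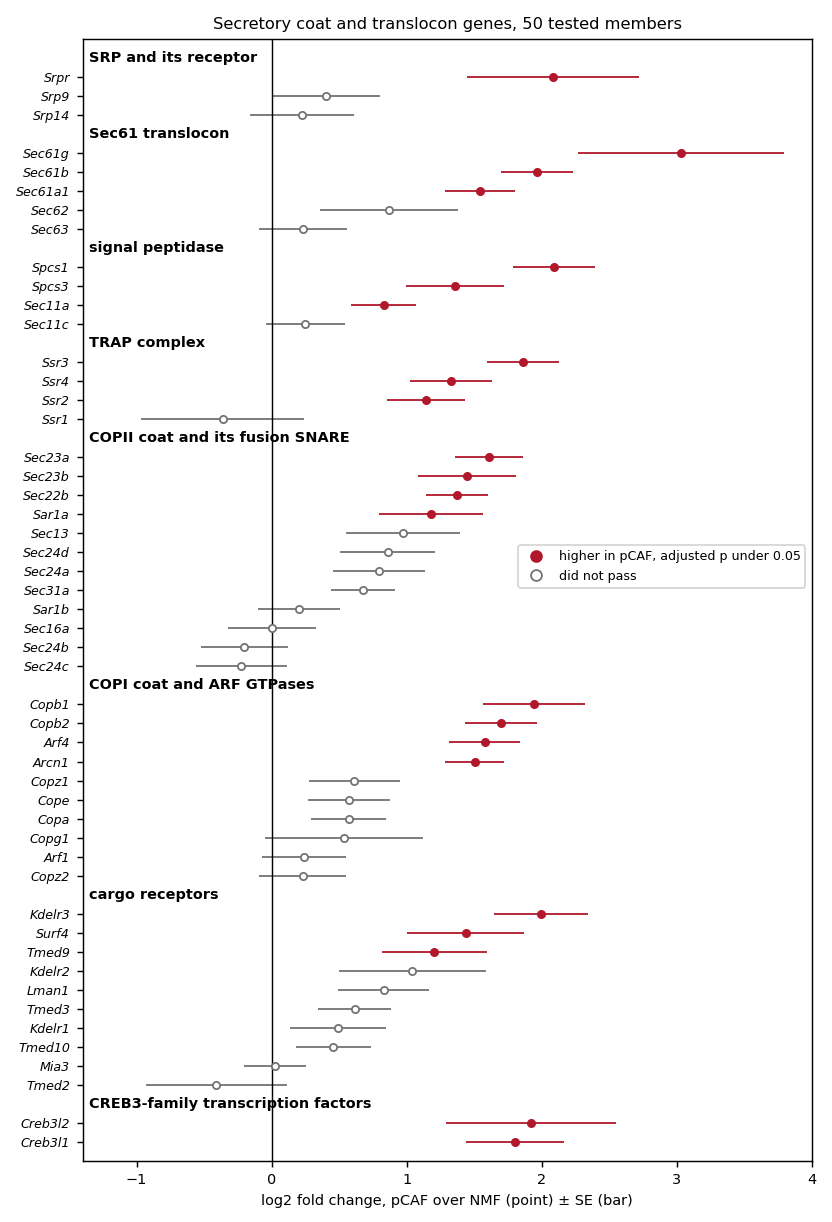
Fitted log2 fold change of pCAF over NMF for the 50 tested members (horizontal axis, points; bars are SE), grouped by role, with filled points for members at an adjusted p under 0.05. All 23 filled points lie right of 0, and 4 open points lie left of it.

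**Figure D2:**
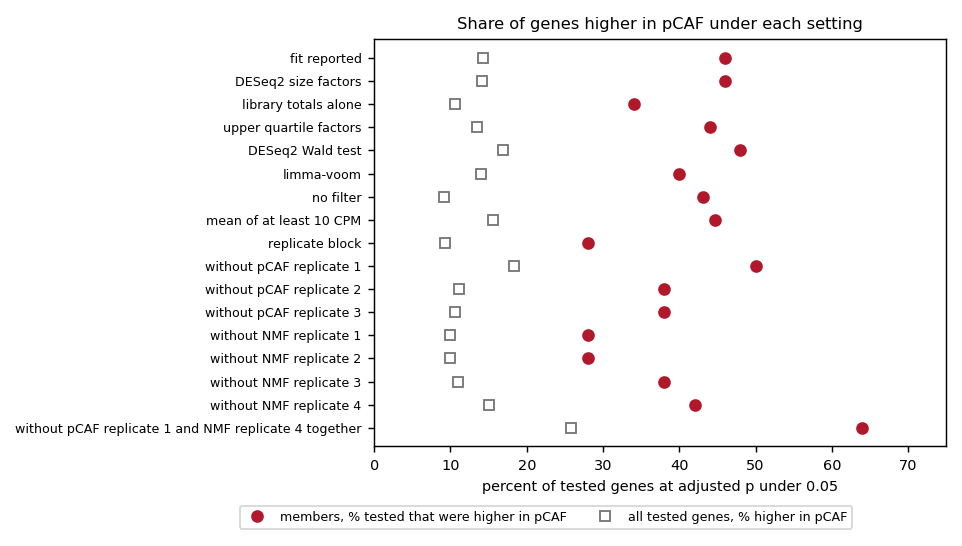
Percent of tested genes that were higher in pCAF at an adjusted p under 0.05 (horizontal axis) in the reported fit and under each of 16 alternatives (rows), for the members (circles) and for all tested genes (squares). The members' share is 46.0% in the reported fit and lies between 28% and 64% under the alternatives, right of the square in each row.

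Some members of the COPII, COPI and cargo receptor classes share a short promoter element. The 8-letter sequence TGACGTGG is an element of the unfolded protein response that CREB3-family factors, ATF6 and XBP1 are known to recognize. It was searched on both strands of RefSeq promoter windows (GRCm38.p6, 250 bases before to 50 after each start), which matched 43 of the 52 members. It was found for 6 of these 43 genes (13.95%), against 1.04% of the 8041 tested genes with a window and 0.714% of all 27025 genes in the window table. Counted by windows, it was in 7 of 46 for the members and in 0.869% for tested genes. Among the further genes of the same route, listed below, it was in 4 of 108 windows (Gbf1, Scfd1, Sec16b and Stx5a). The 6 are shown because they span both coats and a cargo receptor. The strand is that of the gene, and capitals mark the element, which reads CCACGTCA where it lies on the opposite strand.
Copb1, chr7:114254671-114254768, minus strand: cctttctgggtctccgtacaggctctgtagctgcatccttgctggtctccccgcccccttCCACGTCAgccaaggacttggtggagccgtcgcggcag
Copb2, chr9:98563664-98563760, plus strand: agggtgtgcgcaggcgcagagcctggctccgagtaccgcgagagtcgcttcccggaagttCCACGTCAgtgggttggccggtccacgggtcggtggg
Kdelr3, chr15:79516318-79516415, plus strand: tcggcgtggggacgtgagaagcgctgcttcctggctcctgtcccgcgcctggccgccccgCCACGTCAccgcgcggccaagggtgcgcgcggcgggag
Sec23a, chr12:59011988-59012071, minus strand: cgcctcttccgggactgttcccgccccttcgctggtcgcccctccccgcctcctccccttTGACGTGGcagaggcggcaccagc
Sec24d, chr3:123267410-123267507, plus strand: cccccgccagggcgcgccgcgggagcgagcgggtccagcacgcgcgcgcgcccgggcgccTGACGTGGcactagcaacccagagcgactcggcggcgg
Arf1, chr11:59228238-59228306, minus strand: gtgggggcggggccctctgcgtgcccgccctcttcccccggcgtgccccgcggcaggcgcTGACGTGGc

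The element began 28 bases upstream of the RefSeq start in Copb1, 7 in Copb2, 30 in Kdelr3 and 26 in Sec24d, and 6 bases downstream of it in Sec23a. In Arf1 it lay 84 bases upstream of one RefSeq start and 21 downstream of another. The placement depends on the annotation, since by GENCODE gene bounds the element lay inside Copb1, Copb2 and Sec24d. Of the 6 genes, Copb1, Copb2, Kdelr3 and Sec23a were higher in pCAF, and the median log2 fold change of the 6 was 1.65. Among the 35 tested members with a window but without the element, 14 were higher and the median was 0.68. The ranges overlapped, at 0.24 to 1.99 with the element and -0.36 to 3.03 without it, and this difference was not tested. The related letters TGACGTCA, the cyclic AMP response element, were in 1 member window of 46 (Cope), against 3.03% of the windows of tested genes and 1.79% of all 32851 windows. The longer ER stress response elements ERSE and ERSE-II, which share part of their letters with TGACGTGG, were in no member window and in 0.119% and 0.0365% of all windows. Such matches describe letters in a window and do not show a bound site.

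Components of the Sec61 channel were higher in pCAF in 3 of 5 cases. Sec61a1, the pore-forming subunit, was at 764, 599 and 547 CPM in pCAF and 217, 175, 279.9 and 202 CPM in NMF. Sec61b, a small tail-anchored subunit, was at 496, 675 and 744 CPM in pCAF and 144, 162, 207 and 139.9 CPM in NMF. The groups did not overlap for either gene. The 3' end of Sec61a1 overlaps Gm44170 on the opposite strand. Sec61b was 3.91-fold higher (log2 fold change 1.97, SE 0.26, adjusted p = 5.12e-04) and Sec61a1 2.91-fold higher (1.54, SE 0.26, adjusted p = 0.00183).

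The other small subunit, Sec61g, held 54, 14 and 13 counts in pCAF and 2, 1, 6 and 18 in NMF, the fewest of any member called. Its fold was 8.17 (log2 fold change 3.03, SE 0.76, adjusted p = 0.0145), 4.08 without pCAF replicate 1, where it did not pass (adjusted p = 0.0548; 9.92e-04 to 0.0548 over its alternatives), and 13.0 without NMF replicate 4. The 3' ends of Sec61g and Sec61b have near-identical copies in 4 and 3 other annotated genes, so their share of reads is uncertain. Sec62 and Sec63, which help proteins enter the channel after synthesis, did not pass. Sec62 averaged 10.6 ± 4.87 CPM in pCAF and 5.82 ± 1.89 CPM in NMF (SD, n = 3 and 4), and Sec63 averaged 28.6 ± 8.12 and 24.4 ± 4.29 CPM. The 5 genes together summed to 1320, 1333 and 1334 CPM in pCAF and 387, 374, 522 and 372 CPM in NMF, so the pCAF libraries lay close together.

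Signal peptidase subunits were higher in pCAF in 3 of 4 tested cases. Spcs1, an accessory subunit, was at 303, 179 and 212 CPM in pCAF and 49.8, 65.9, 66.2 and 35.7 CPM in NMF, with no overlap, and was 4.27-fold higher (log2 fold change 2.09, SE 0.30, adjusted p = 8.19e-04). Its 3' end overlaps Glt8d1 on the opposite strand, and the strand setting of the counting is not given, so its share of reads is uncertain. Sec11a, a catalytic subunit, was at 241, 226 and 234 CPM in pCAF and 134, 144, 151 and 97.7 CPM in NMF. The difference in Sec11a, whose 3' end overlaps Gm16171 on the opposite strand, was 1.78-fold (adjusted p = 0.0263). Spcs3 was at 50.5, 149 and 152 CPM in pCAF and 40.9, 45.2, 51.0 and 45.4 CPM in NMF. pCAF replicate 1 thus lay within the NMF range, and the fold of 2.56 (adjusted p = 0.0183) rested on replicates 2 and 3. Sec11c, the alternative catalytic subunit, averaged 78.2 ± 19.2 CPM in pCAF and 65.9 ± 16.5 CPM in NMF (adjusted p = 0.562). Spcs1 was the sole called subunit without pCAF replicate 2 or 3 or NMF replicate 1 or 2. Spcs2 had 1 count in pCAF and 5 in NMF over all libraries and was not tested.

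TRAP complex subunits were higher in 3 of 4 cases. Ssr3, the gamma subunit, was at 683, 614 and 669 CPM in pCAF and 144, 141, 209 and 228 CPM in NMF, 3.63-fold higher (log2 fold change 1.86, SE 0.27, adjusted p = 7.04e-04). Ssr4, the delta subunit, was at 820.2, 430.4 and 452 CPM in pCAF and 231, 233, 272 and 167 CPM in NMF, 2.51-fold higher (adjusted p = 0.00938). For Ssr2, the beta subunit, the values were 838, 493 and 455 CPM in pCAF and 237, 248, 345 and 248 CPM in NMF, 2.21-fold higher (adjusted p = 0.0152). None of these 3 genes overlapped between the groups, and Ssr2 and Ssr4 stood highest in pCAF replicate 1. The 3' end of Ssr2 overlaps Gm10704 on the opposite strand. Without NMF replicate 1 or 2 its call was lost (0.00202 to 0.0760 over its alternatives). Ssr1, the alpha subunit, had a negative log2 fold change of -0.36 (SE 0.60, adjusted p = 0.696), with 2.22, 15.8 and 9.98 CPM in pCAF and 15.8, 13.5, 12.3 and 6.72 CPM in NMF.

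Among the SRP genes, which target ribosomes to the ER, 1 of 3 tested was called. Srpr, the docking subunit of the SRP receptor, was at 400.4, 90.1 and 60.4 CPM in pCAF and 25.5, 32.9, 32.0 and 81.1 CPM in NMF. The groups overlapped, with the highest value of each group in the library that stood apart from it. Its fold was 4.24 (adjusted p = 0.0332), and without pCAF replicate 1 it was 1.72 (adjusted p = 0.181; 1.04e-04 to 0.181 over its alternatives). The call was also lost without NMF replicate 1, 2 or 3. Its 3' end has a near-identical copy in 1 other gene and overlaps others on the opposite strand. Srp9 and Srp14, which arrest elongation, had folds of 1.32 and 1.17 (adjusted p = 0.491 and 0.706). Srp54a, the subunit that binds the signal sequence, was at 0 in all 7 libraries, as were Srp54b and Srp54c, whose 3' ends are near-identical to it. Whether reads shared by these copies were left out of the counting was not tested.

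The COPII class, which holds the SNARE Sec22b beside the coat genes, had 4 of 12 genes higher in pCAF. This share of 33.3% compares with 14.3% of all tested genes, and the other 8 had no call. Sec23a, an inner coat subunit and GTPase activator, was at 216, 193 and 191 CPM in pCAF and 68.0, 45.6, 76.0 and 72.1 CPM in NMF. It was 3.05-fold higher (log2 fold change 1.61, SE 0.25, adjusted p = 0.00118). Sec22b, a SNARE on ER-derived vesicles, was at 128, 129 and 115 CPM in pCAF and 47.9, 49.4, 54.2 and 40.3 CPM in NMF, 2.59-fold higher (adjusted p = 0.00178). Both genes had tight groups that lay well apart. The 3' end of Sec23a overlaps Gm17529 on the opposite strand.

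The other inner coat paralog, Sec23b, was at 159, 59.7 and 84.3 CPM in pCAF and 33.6, 31.2, 31.3 and 51.0 CPM in NMF, 2.73-fold higher (adjusted p = 0.0139). Sar1a, the GTPase that starts coat assembly, was at 1068, 361 and 388 CPM in pCAF and 295, 216, 282 and 276 CPM in NMF, 2.26-fold higher (adjusted p = 0.0429). In Sar1a the mean of pCAF was carried by replicate 1, and without it the fold was 1.40 (adjusted p = 0.0979; 0.0186 to 0.122 over its alternatives). The Sar1a call was lost without any one of the NMF libraries as well, and the Sec23b call without NMF replicate 1 or 2. Without NMF replicate 1 or 2, the 2 called genes of the class were thus Sec23a and the SNARE Sec22b. In those fits 9.96% and 9.92% of all tested genes were higher.

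Sec31a, the outer coat scaffold, did not pass although its groups did not overlap. It was at 311, 322 and 279.9 CPM in pCAF and 205, 149, 190.4 and 215 CPM in NMF (log2 fold change 0.68, SE 0.24, adjusted p = 0.0537). It passed without pCAF replicate 1 and without NMF replicate 4, and with DESeq2 and limma-voom (0.00292 to 0.189 over its alternatives). The cargo-binding Sec24 subunits had unequal values. Sec24d was at 98.7, 237 and 232 CPM in pCAF and 92.3, 72.6, 109 and 142 CPM in NMF (1.81-fold, adjusted p = 0.0944). Without pCAF replicate 1 it passed, and its adjusted p ran from 9.98e-06 to 0.267 over its alternatives. Sec24a did not overlap between the groups (25.8 ± 6.26 CPM in pCAF and 14.8 ± 2.91 CPM in NMF, adjusted p = 0.110). Sec24b and Sec24c had log2 fold changes of -0.20 and -0.23 (adjusted p = 0.679 and 0.661). Sec13, an outer coat subunit, was at 90.9, 272 and 294 CPM in pCAF and 119, 125, 143 and 59.9 CPM in NMF, so it lay above NMF in 2 pCAF libraries and within its range in the third (adjusted p = 0.112, and it passed without pCAF replicate 1). Sar1b had a log2 fold change of 0.20 (SE 0.30). Sec16a, a scaffold of ER exit sites, had 56.8 ± 12.8 CPM in pCAF and 56.6 ± 20.05 CPM in NMF (adjusted p = 0.999).

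**Figure D3:**
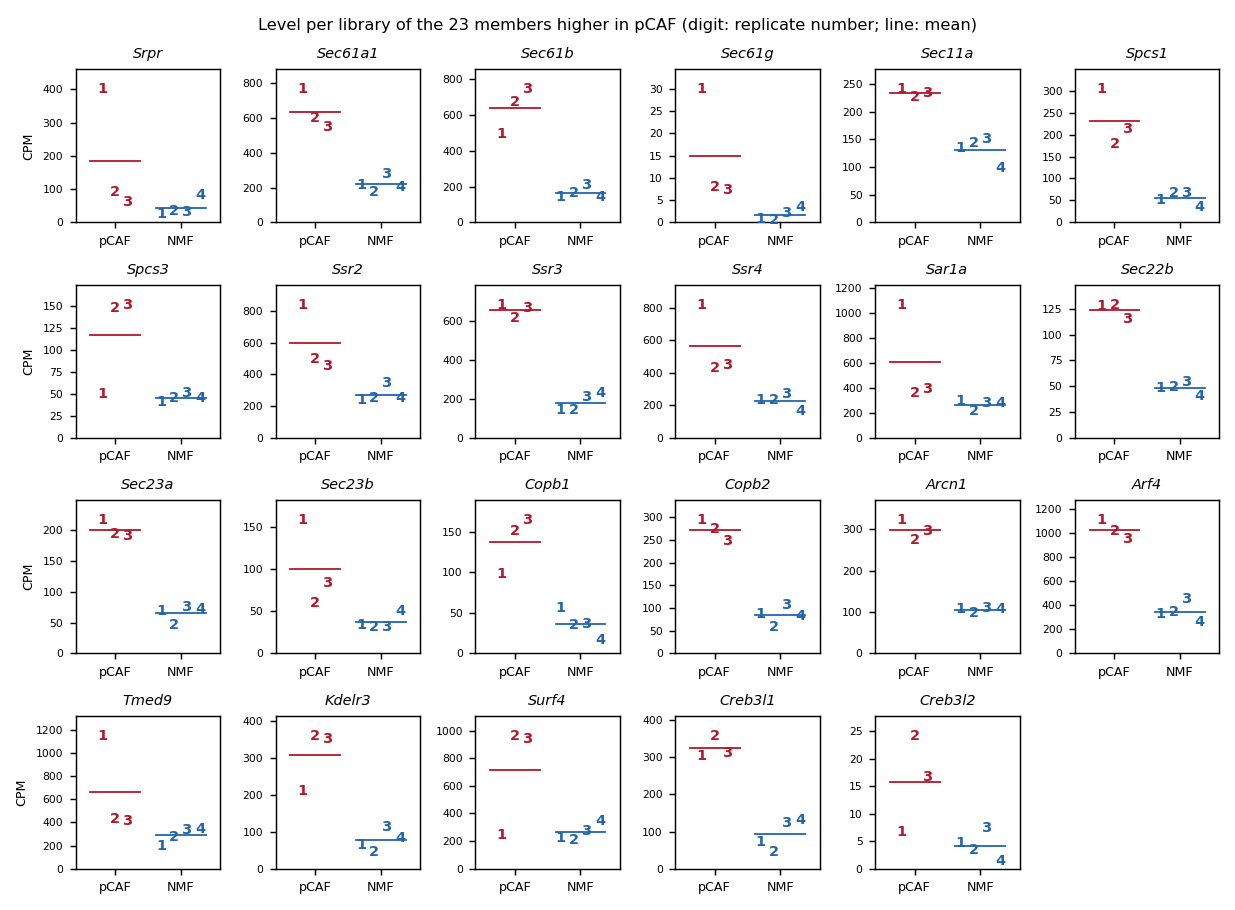
Level in CPM (vertical axes, linear from 0) of the 23 members higher in pCAF, with a digit for each replicate and a line for each group mean. Sec22b, Sec23a and Arcn1 show tight groups far apart, while Srpr, Sar1a and Tmed9 stand high in pCAF replicate 1 and Spcs3, Surf4 and Creb3l2 stand low in it.

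COPI genes were higher in 4 of 10 cases. Arf4, a GTPase of the early Golgi, was at 1109, 1018 and 957 CPM in pCAF and 331, 341, 448 and 258 CPM in NMF, 2.98-fold higher (log2 fold change 1.58, SE 0.26, adjusted p = 0.00164). Copb2, the beta-prime coat subunit, was at 294, 274 and 247 CPM in pCAF and 87.3, 57.4, 108 and 81.8 CPM in NMF, 3.25-fold higher (1.70, SE 0.26, adjusted p = 0.00114). Both genes stood clear of NMF in each pCAF library.

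The beta subunit, Copb1, was at 97.6, 150.4 and 164 CPM in pCAF and 55.2, 34.6, 36.6 and 16.99 CPM in NMF, 3.85-fold higher (adjusted p = 0.00400). Arcn1, the delta subunit, was at 322, 274 and 297 CPM in pCAF and 106, 98.0, 109 and 106 CPM in NMF, 2.83-fold higher (adjusted p = 7.64e-04). The NMF libraries agreed closely for Arcn1, including replicate 4. An annotated end of Arcn1 is near-identical to stretches in 27 other genes, so its share of reads is uncertain. The 4 calls held under each alternative.

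The remaining 6 COPI genes did not pass. Their folds were 1.48 for Copa, 1.49 for Cope, 1.45 for Copg1, 1.53 for Copz1, 1.17 for Copz2 and 1.18 for Arf1, with adjusted p from 0.158 to 0.635. Copa, the alpha subunit, was at 115, 222 and 202 CPM in pCAF and 119.7, 103, 144 and 119 CPM in NMF, and passed without pCAF replicate 1. Copg1, a gamma subunit, was at 333, 67.6 and 59.9 CPM in pCAF and 80.7, 71.4, 86.9 and 183 CPM in NMF. The highest value of both groups again fell in pCAF replicate 1 and NMF replicate 4, and without pCAF replicate 1 the log2 fold change was -0.74 (adjusted p = 0.157).

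Cargo receptors were higher in 3 of 10 cases. Kdelr3, which returns escaped ER proteins that carry a KDEL tail, was at 209.6, 361 and 352 CPM in pCAF and 64.9, 44.3, 114 and 84.4 CPM in NMF. It was 3.98-fold higher (log2 fold change 1.99, SE 0.35, adjusted p = 0.00228), and the lowest pCAF library exceeded the highest NMF library. Its 3' end overlaps Ddx17 on the opposite strand, so its share of reads is uncertain. Surf4, a receptor for soluble cargo, was at 242, 963 and 940.1 CPM in pCAF and 224, 208, 276 and 349 CPM in NMF, 2.71-fold higher (adjusted p = 0.0318). pCAF replicate 1 lay inside the NMF range for Surf4, whose 3' end overlaps Surf2 on the opposite strand.

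Tmed9, a p24-family receptor, showed the opposite arrangement within pCAF. It was at 1148, 430.4 and 412 CPM in pCAF and 200.5, 274, 330.2 and 347 CPM in NMF, 2.30-fold higher (adjusted p = 0.0426), and 1.46-fold higher without pCAF replicate 1 (adjusted p = 0.113; 0.0109 to 0.140 over its alternatives). Surf4 and Tmed9 both lost their calls without NMF replicate 1, 2 or 3, which left Kdelr3 alone. Kdelr3 was also the sole called receptor with library totals, with limma-voom and with the replicate block. In all of these fits 9.28% to 14.0% of all tested genes were higher. Surf4 also lost its call without pCAF replicate 2 or 3, and Tmed9 without NMF replicate 4.

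Several receptors that did not pass were low in both libraries that stood apart. Kdelr2 was at 110.4, 387 and 427 CPM in pCAF and 194, 154, 207 and 44.6 CPM in NMF (2.06-fold, adjusted p = 0.183). Lman1, a lectin for glycoprotein cargo, was at 166, 395 and 376 CPM in pCAF and 199.7, 189, 196 and 119 CPM in NMF (1.78-fold, adjusted p = 0.0925). Kdelr1 was at 322, 759 and 703 CPM in pCAF and 419, 426, 578 and 272 CPM in NMF (1.40-fold, adjusted p = 0.344). Without pCAF replicate 1 and NMF replicate 4 together, 7 of the 10 receptors passed, these 3 among them. Mia3, also called TANGO1, which loads bulky collagen into COPII carriers, was at 121, 124 and 139 CPM in pCAF and 122, 109, 145 and 126 CPM in NMF (log2 fold change 0.03, SE 0.23, adjusted p = 0.947). For Tmed3 and Tmed10 the log2 fold changes were 0.61 and 0.46 (adjusted p = 0.118 and 0.255), and for Tmed2 it was -0.41 (adjusted p = 0.602). The ends of Tmed2 and Tmed10 have near-identical copies in 2 and 1 other genes.

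Both CREB3-family genes among the members were higher in pCAF. Creb3l1, also called OASIS, a membrane-bound transcription factor known to drive type I collagen in bone, was at 304, 358 and 310.4 CPM in pCAF and 71.5, 44.8, 123 and 132 CPM in NMF. It was 3.49-fold higher (log2 fold change 1.80, SE 0.36, adjusted p = 0.00462), without overlap and under each alternative. Creb3l2, known in mouse cartilage to act through Sec23a, held 12, 43 and 30 counts in pCAF and 12, 8, 21 and 8 in NMF. Its groups overlapped, the fold was 3.79 (adjusted p = 0.0442), and the call failed when pCAF replicate 2 or 3 or NMF replicate 1, 2 or 4 was left out (4.55e-04 to 0.190 over its alternatives).

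**Figure D4:**
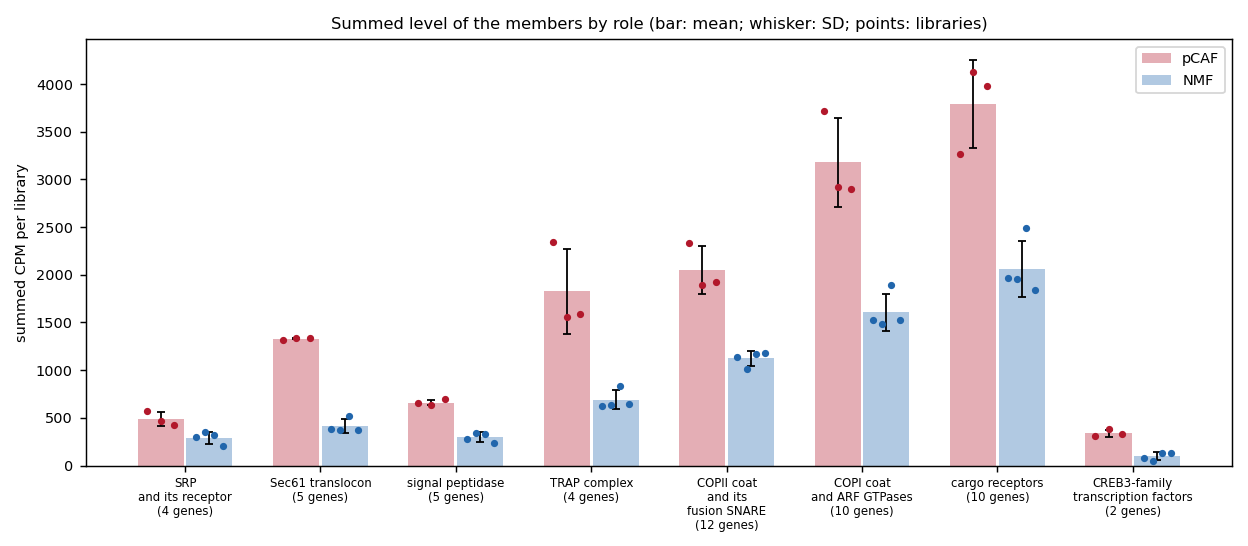
Summed CPM of the members of each role (vertical axis), with bars for group means, whiskers for SD and points for the 3 pCAF and 4 NMF libraries. In every role the lowest pCAF library lies above the highest NMF library, as in the Sec61 translocon with 1320 to 1334 CPM in pCAF and 372 to 522 CPM in NMF.

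Related genes within a family were compared by the log2 ratio of their CPM in each library, with a pseudocount of 1 CPM. Such a ratio cancels the library scaling only in part, because the pseudocount shrinks ratios that hold a low gene such as Creb3l2. The 9 ratios were tested with an exact two-sided permutation test, which with 3 and 4 libraries cannot give a p below 0.0571, so none could pass. The ratio of Kdelr3 to Kdelr1 averaged -0.90 ± 0.24 in pCAF and -2.48 ± 0.65 in NMF (SD), a difference of 1.58 on the log2 scale (exact p = 0.0571, adjusted over the 9 ratios 0.171). The groups did not overlap in that ratio. Copz2 to Copz1, the zeta coat subunits, averaged -0.79 ± 0.09 in pCAF and -0.42 ± 0.18 in NMF, and Sec11c to Sec11a averaged -1.60 ± 0.40 in pCAF and -0.996 ± 0.27 in NMF. Both of these ratios lay below NMF in each pCAF library (differences of -0.37 and -0.60, exact p = 0.0571 each, adjusted 0.171). For the other 6 ratios the groups overlapped. Sec24d to Sec24c differed by 1.05 (exact p = 0.171), Sec24a to Sec24b by 0.95 (exact p = 0.114), Sar1a to Sar1b by 0.76, Kdelr2 to Kdelr1 by 0.58, Sec23a to Sec23b by 0.28 and Creb3l1 to Creb3l2 by 0.26, with exact p from 0.114 to 0.686. The last 2 were the only ratios to turn in sign when 1 library was left out, at -0.01 for Sec23a to Sec23b without pCAF replicate 2, and at -0.19 and -0.0040 for Creb3l1 to Creb3l2 without pCAF replicate 1 or NMF replicate 2.

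**Figure D5:**
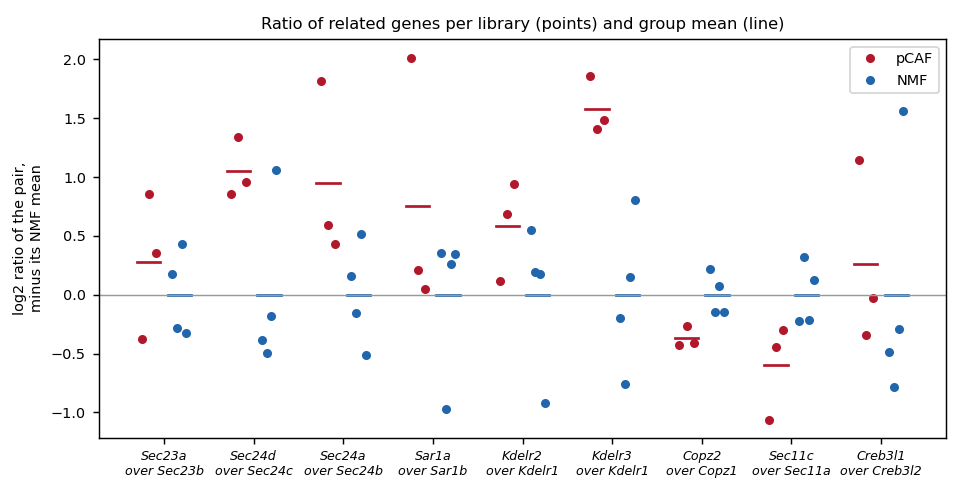
Log2 ratio of CPM between related members in each library, with the NMF mean of the pair set to 0 (vertical axis), for 9 pairs; lines are group means. The pCAF points lie above all NMF points for Kdelr3 over Kdelr1 and below all of them for Copz2 over Copz1 and Sec11c over Sec11a.

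The members also differed among themselves in how they sat in the libraries that stood apart. Of the 50 tested members, 23 were higher in pCAF replicate 1 than in both other pCAF libraries and 24 were lower than in both. The side was often shared with NMF replicate 4 relative to the other NMF libraries. Here 9 members, such as Srpr, Copg1 and Tmed9, were highest in both libraries, and 15, such as Kdelr2, Lman1, Sec13 and Creb3l2, were lowest in both, which makes 48.0% of the tested members. Another 8 (16.0%) were on opposite sides. Over all tested genes these shares were 36.8% and 27.5%. NMF replicate 3 was the highest NMF library in 27 of the 50 members and the lowest in 2. Its median log2 deviation from the mean of the other NMF libraries was 0.30 for the members and 0.0077 for all tested genes. For the counts in a single library the shares over all tested genes were not computed.

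A further 110 genes of the same route or of its gene families were listed by function. Of 101 tested, 21 were higher (20.8%, against 14.3% of all tested genes) and 2 lower in pCAF (1.98%, against 14.2%), with a median log2 fold change of 0.30. Without pCAF replicate 1 and NMF replicate 4 together 40 were higher and 13 lower, in a fit where 25.9% of all tested genes were higher and 26.9% lower. The oligosaccharyltransferase, which glycosylates chains as they leave Sec61, had 5 of 11 genes higher (45.5%) and none lower. Tusc3, named after its value was seen, lay below NMF in each pCAF library but did not pass (1.49 and 6.77 CPM on average, adjusted p = 0.0601). Of the 11 genes, 1 was lower with library totals, with the DESeq2 test and in both fits without NMF replicate 4. There 13.4% to 26.9% of all tested genes were lower. In that complex Ostc averaged 453 ± 76.7 CPM in pCAF and 133 ± 35.2 CPM in NMF (3.41-fold, adjusted p = 0.00109), and the catalytic Stt3a 116 ± 60.8 and 31.1 ± 7.69 CPM (3.71-fold, adjusted p = 0.00637). Among COPI accessory factors and tethers 6 of 30 were higher (20.0%) and none lower. They were led by Scfd1, an ER-Golgi fusion factor, at 115 ± 26.2 CPM in pCAF and 22.5 ± 6.23 CPM in NMF (5.13-fold, adjusted p = 4.27e-04). Next by adjusted p was Arf6 (4.93-fold, adjusted p = 0.00286), an ARF-family GTPase whose part in COPI transport was not tested. The count of higher genes in this list was 3 without NMF replicate 1 or 2, where 9.96% and 9.92% of all tested genes were higher.

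In the class of ER exit and COPII accessory genes 5 of 32 were higher and 1 lower, and the 15.6% that were higher lay near the 14.3% of all tested genes. The counts were 8 and 4 without pCAF replicate 1, where 18.3% of all tested genes were higher and 19.8% lower, and 3 were higher without NMF replicate 2. Yipf5 (2.25-fold) and Mcfd2, the partner of Lman1 (2.30-fold), were higher with adjusted p of 0.00538 and 0.00684, whereas Ergic3 was 1.80 times lower (adjusted p = 0.0258). The Ergic3 call did not hold when pCAF replicate 2, pCAF replicate 3, NMF replicate 1 or NMF replicate 3 was left out. Of 18 targeting and insertion genes 2 were higher (11.1%, below the 14.3% of all tested genes), Srp19 (2.61-fold, adjusted p = 0.00738) and Tram1 (1.71-fold, adjusted p = 0.0367), and 1 was lower, Emc9 (2.35 times, adjusted p = 0.0186). Tram1 did not pass when pCAF replicate 3 or NMF replicate 1, 2 or 3 was left out, which left 1 higher gene in each case, and Emc9 did not pass when pCAF replicate 2 or 3 or NMF replicate 3 was left out. When NMF replicate 4 was left out, 5 were higher. Emc9 overlaps Psme1 on the opposite strand. Of 10 tested CREB3-family and unfolded protein response regulators 3 were higher (30%, against 14.3% of all tested genes) and none lower. They were Atf6 (2.75-fold, adjusted p = 0.00925), Creb3l3 (3.94-fold, adjusted p = 0.0121) and Mbtps2 (adjusted p = 0.0139). Mbtps2, named after its value was seen, encodes a protease that releases such factors from the membrane. It averaged 13.7 CPM in pCAF and 3.56 CPM in NMF. Mbtps1, of the same list, lay below NMF in each pCAF library but did not pass (117 and 190 CPM on average, adjusted p = 0.206). The same held for Eif2ak3 (13.9 and 21.7 CPM, adjusted p = 0.369). Xbp1 was at 950, 242 and 303 CPM in pCAF and 178, 228, 195 and 263 CPM in NMF, and did not pass (adjusted p = 0.0644). The fitted difference was positive in 6 of the 10 and negative in 4. With the replicate block none of the 10 was higher, where 9.28% of all tested genes were.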

How the data were processed

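The submitters' processing notes name the mm10 build and, among tools, HTSeq, bcl2fastq and STAR 2.4.2a. The annotation, strand setting, treatment of multi-mapping reads and any molecular identifiers are not given in the sources used here. The authors deposited raw counts per gene symbol, and 7867 of 24421 rows were at 0 throughout. Samples were grouped by title. The counts were tested with edgeR 4.0.16 in R 4.3.3 (filterByExpr, TMM factors, robust quasi-likelihood F test, two-sided, Benjamini-Hochberg adjustment over all 10535 tested genes, threshold 0.05), in one fit of all 7 libraries. CPM values use the effective library sizes, and SE is the log2 fold change over the root of F. The fit was run on simulated counts with planted changes, but with no library that stood apart, so that run does not test the calls given here. Depth limits genes with few counts, as given beside them.

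The members, lists and the rule for named genes (all members, up to 2 genes each way per further list by adjusted p, the first 3 genes of each marker list, here given as sums over the list, and Runx1) were chosen with earlier results of these data known. Alternatives used DESeq2 1.42.0, limma 3.58.1, other scalings and filters, the replicate number as a block, and libraries left out. Gene positions came from GENCODE M21 (mm10), and the last 300.0 bases of coding transcripts were compared with all transcripts by blastn 2.17.0 (matches of at least 80 bases at 95% identity). Exons of other genes over the last 1000.0 bases were listed. No member overlapped another gene on its own strand there. Promoter windows are from RefSeq. Camlg, a listed gene, was not matched in the table by that symbol.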

Additional observations from a re-analysis of the deposited data

Results flagged for a closer look

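In 10 of 51 members with counts in NMF, 1 of the 4 NMF libraries stood far from the other 3, by a gap that chance gives in about 1 of 20 groups. This count was not made over all genes, and the members were read in the same 4 libraries. It thus cannot be read as a trait of the members. In 7 of the 10 this library was NMF replicate 4. It was high for Srpr (81.1 CPM, against 25.5 to 32.9 CPM in the other 3), Sec16a (86.5, against 43.65 to 49.4), Sec23b (51.0, against 31.2 to 33.6), Sec24b (111, against 61.3 to 64.9) and Copg1 (183, against 71.4 to 86.9). It was low for Arf1 (145, against 244 to 262) and Lman1 (119, against 189 to 199.7). NMF replicate 3 was high for Ssr2 (345, against 237 to 248) and for Spcs2 (1.76, against 0), and NMF replicate 2 was high for Sar1b (134, against 68.4 to 74.3). What set these libraries apart was not tested.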

How the results depend on the processing

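None of the 23 called members turned in direction under any of the 16 alternatives. The number of higher members ran from 14 to 25 when 1 library was left out, that of lower members was 0 throughout, and over all tested genes 979 to 2187 were lower there. With both pCAF replicate 1 and NMF replicate 4 left out, 2802 of all genes were higher and 2913 lower. With the replicate block 14 members and 978 of all genes were higher. Same-numbered libraries had correlations of -0.09, 0.08 and -0.01 after group means were removed. Those means include pCAF replicate 1 and NMF replicate 4, so these values cannot decide whether the numbers mark pairs. The block fit gives NMF replicate 4 a term of its own.

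Signs turned for members that did not pass in either fit, and the cause was not tested. With library totals the log2 fold changes were -0.026 for Sar1b, -0.25 for Sec16a, -0.043 for Copz2 and -0.21 for Mia3. Sec16a was at -0.00098 with DESeq2 size factors, -0.049 with upper quartile factors, -0.0019 with the DESeq2 test, -0.031 with no filter and -0.0089 with a mean of at least 10 CPM. Mia3 was at -0.018 with upper quartile factors and -0.010 with no filter. With the replicate block Srp14 was at -0.080 and Sec24b at 0.014. With both of those libraries left out Sec24b was at 0.26, Copg1 at -0.33 and Copz2 at -0.24. When 1 library was left out, log2 fold changes ran from -0.0036 to 0.49 for Srp14, -0.97 to 0.11 for Ssr1, -0.18 to 0.31 for Sec16a, -0.34 to 0.067 for Sec24b and -0.49 to 0.029 for Sec24c. They ran from -0.74 to 0.99 for Copg1, -0.26 to 0.44 for Copz2 and -0.046 to 0.11 for Mia3. The ratio of Sec23a to Sec23b then ran from -0.011 to 0.61 and that of Creb3l1 to Creb3l2 from -0.19 to 0.78.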
